A study of Mus musculus with 4 samples.

Results

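The unfolded protein response and the chaperone machinery of the endoplasmic reticulum (ER) were described here through 32 genes, chosen by symbol from the 24421 genes listed in each library. They comprise 3 stress sensors, 4 transcription factors, 11 chaperones and co-chaperones, 4 disulfide isomerases, 6 genes of ER-associated degradation (ERAD) and 4 genes downstream of the PERK kinase. All 32 were found in every file. The series holds RNA-seq libraries of 4 C57BL/6-background mice. Animals 139 and 140 are wild type for Usp25 (Usp25+/+), and animals 826 and 850 are knockouts (Usp25-/-). Usp25 encodes an enzyme that removes ubiquitin from proteins. All 4 animals are labelled as females aged 8 weeks whose distal colon was taken after 5 days of 2.5% dextran sulfate sodium (DSS, an agent that injures the gut lining) and 2 days of plain water. No untreated group was analysed here, and the sources used here do not give the part of Usp25 that the mutation removes. The labels name separate animals and do not say whether they were littermates. Values are taken as FPKM, fragments scaled to transcript length and to the mapped total of the library, so levels can be compared between genes within a library. The sequencing depth behind them is unknown.

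The libraries went against the labelled sex and, in most of the markers examined, against the labelled tissue, so the genotypes named below are those of the labels. Of 14 colon epithelial markers found, 9 were under 1 FPKM in every library, 3 of these listed at 0 throughout. The other 5 went the other way in part, all highest in 826, where Lgals4 stood at 70.6, Krt20 at 52.4 and Guca2a at 16.6 FPKM. The list summed to 12.6 and 14.1 FPKM in 139 and 140 and to 143 and 40.8 FPKM in 826 and 850. The medians of 10 lung alveolar type 2 markers ranged from 33.1 to 59.5 FPKM. Xist, the RNA that silences an X chromosome in females, was at most 0.11 FPKM, and the Y-linked Ddx3y ranged from 12.7 to 30.3 FPKM. The targeted gene Usp25 stood at 38.5 FPKM in 139 and 16.6 FPKM in 140, against 2.65 FPKM in 826 and 1.71 FPKM in 850. Animal 139 held the highest value of all 12 neutrophil markers, whose sum was 55100 FPKM there and 1440 to 4150 FPKM in the other libraries. Animal 826 held the highest value of 8 of 9 gastric surface markers, whose sum was 2930 FPKM, against 1160 FPKM in 850 and 163 and 199 FPKM in 139 and 140. In bulk tissue, fewer cells of a type and less RNA per cell cannot be told apart.

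The ER is where secreted and membrane proteins are folded. When unfolded proteins accumulate there, the membrane sensors IRE1, PERK and ATF6 start the unfolded protein response. IRE1 splices the Xbp1 messenger RNA into the form that encodes an active transcription factor. PERK phosphorylates the initiation factor eIF2alpha, which lowers protein synthesis and favours translation of Atf4, and ATF6 is cut in the Golgi to release a transcription factor. Together they raise chaperones, disulfide isomerases and the ERAD machinery, and prolonged activation turns on Ddit3 (CHOP). Alveolar type 2 cells, mucous cells and plasma cells are professional secretory cells that depend on this machinery. Gene-level FPKM values show neither Xbp1 splicing nor the activation of the sensor proteins.

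No ER stress gene passed the test between the genotypes. Where 4 values are given as a pair against a pair, they are those of 139 and 140 (Usp25+/+) against 826 and 850 (Usp25-/-). Values were compared with limma on log2(FPKM + 1), fitted to the 12011 genes that averaged 1 FPKM or more and adjusted over all of them. The filter kept 31 of the 32 genes and left out Derl3. Limma called 0 of the 31 at an adjusted p of 0.05, as it did of all tested genes (0.0%), and 1 of the 31 at an unadjusted p of 0.05 against 3.12% of all tested genes. The smallest limma adjusted p among the 31 was 0.96. In 14 of the 31 (45.2%) the genotypes did not overlap, 9 of them higher and 5 lower in Usp25-/-. Over all tested genes the shares were 33.8% in either direction, 19.0% higher and 14.7% lower. The median log2 fold change (Usp25-/- minus Usp25+/+) was 0.11, beside 0.03 over all tested genes, with 19 positive (61.3%) and 12 negative, beside 53.5% positive over all tested genes. For 2 libraries against 2, the smallest p that exact permutation allows is 0.333.

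Levels of the 32 genes ran from means of 0.793 to 397 FPKM, with the same genes at the top and bottom of each library. Hspa5, Calr and P4hb filled the first 3 places in all 4 libraries, with means over the libraries of 397, 367 and 300 FPKM. Hspa5 alone made up 13.6% of the summed FPKM of the 32 genes. At the other end, Ern1 averaged 4.19 FPKM, Chac1 1.42 FPKM and Derl3 0.793 FPKM, and Chac1 and Derl3 took the last 2 places in every library. Every chaperone and isomerase had a higher mean than the sensors, of which the highest, Atf6, averaged 9.24 FPKM. Among the transcription factors the order by mean was Atf3 (213 FPKM), Atf4 (166), Xbp1 (102) and Ddit3 (22.6). Most neighbours in the order by mean had overlapping ranges over the libraries, Hspa5 and Calr among them. Of 31 neighbouring pairs, 4 were apart, namely Herpud1 above Dnajb11, Sel1l above Syvn1, Eif2ak3 above Trib3 and Ern1 above Chac1.

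**Figure D1:**
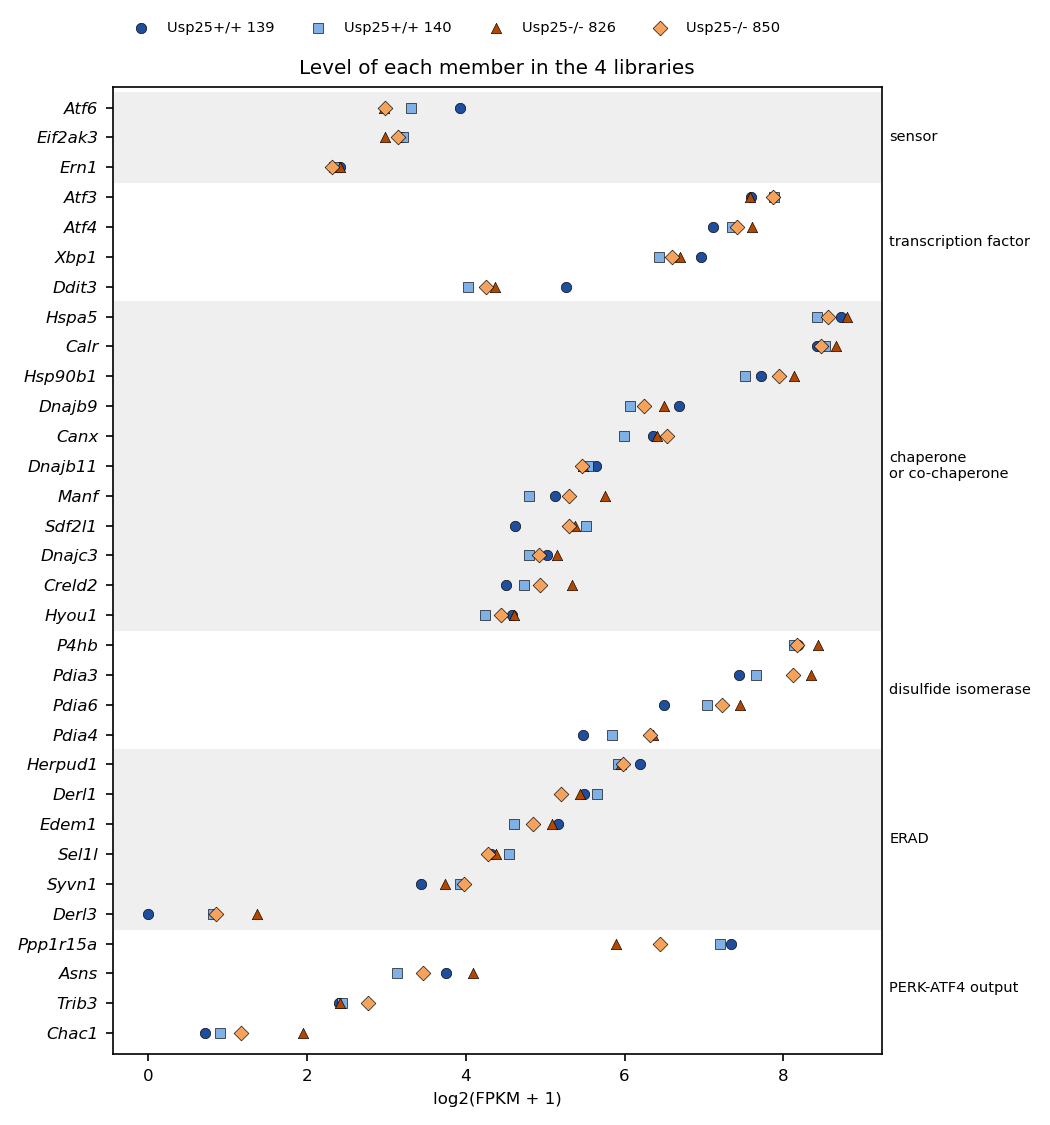
Level of each of the 32 genes as log2(FPKM + 1) on the horizontal axis, with 1 symbol for each library and genes grouped by role and ordered by mean. Chaperones and isomerases such as Hspa5 (397 FPKM on average) lie far to the right of the sensors, of which Atf6 has the highest mean (9.24 FPKM), and Derl3 is listed at 0 in animal 139.

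The 3 sensors were lower or level in Usp25-/-. Atf6, whose freed fragment activates chaperone promoters, stood at 14.3 FPKM in 139 and 8.96 FPKM in 140, against 6.82 FPKM in 826 and 6.94 FPKM in 850. The Usp25-/- libraries were close together and both below Usp25+/+, where 139 was well above 140. The log2 fold change was -0.65 (SE 0.33; limma adjusted p = 0.96), and -0.34 without animal 139. Eif2ak3, which encodes PERK, stood at 8.13 and 8.28 against 6.93 and 7.86 FPKM, a narrow gap between the genotypes (-0.13, SE 0.27). Ern1, which encodes IRE1, lay between 3.98 and 4.37 FPKM in all 4 libraries and had the smallest ratio of highest to lowest library among the 3 (1.10). Its relative Ern2, known from mucous epithelia of gut and airway, stayed below 1 FPKM, between 0.0943 and 0.531 FPKM.

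The transcription factors did not share a direction, with a median of -0.03 that was 0.18 without 139. Atf4, the factor translated when eIF2alpha is phosphorylated, stood at 137 and 162 against 194 and 170 FPKM, which gave 0.28 on the log2 scale (SE 0.32). Both Usp25-/- libraries were above both Usp25+/+ libraries, by a margin smaller than the distance between the libraries of a genotype. Ddit3, which encodes the pro-apoptotic factor CHOP, stood at 37.4 and 15.3 against 19.6 and 18.1 FPKM. Animal 139 alone was high and the other 3 libraries were close, so that the log2 fold change was -0.33 (SE 0.47) with all libraries and 0.29 without 139. That library also had the highest sum of neutrophil markers (55100 FPKM), whose part in the Ddit3 value was not tested. Xbp1 stood at 124 and 85.8 against 103 and 96.1 FPKM, with both Usp25-/- libraries between those of Usp25+/+. Atf3, a stress-induced repressor, was near 191 FPKM in 139 and 826 (192 and 191) and near 235 FPKM in 140 and 850 (235 and 232), a split that crosses the genotypes.

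Many chaperone genes carry a binding sequence for ATF6 in their promoter, the ER stress response element (ERSE), in which CCAAT and CCACG are separated by any 9 bases. It was searched on both strands in RefSeq promoter windows of GRCm38.p6, a newer mouse build than the mm9 of the deposited files, from 250 bases before to 50 after each start. Of the 32 genes, 28 had a window, and Atf6, Hyou1, Manf and Derl1 did not. ERSE was found in 9 of the 28 (32.1%), against 0.137% of the 27025 genes of the promoter table. The 9 are Hspa5, Hsp90b1, Calr, Canx, Dnajc3, Creld2, Pdia6, Syvn1 and Derl3. The related ERSE-II, ATTGG and CCACG separated by any 1 base, was found in Herpud1 and, just after the start, in Dnajb11 (7.14% against 0.0444%). The element read by ATF4, called CARE and searched as TGATGNAA, was in Atf3, Herpud1, Trib3, Chac1 and Asns (17.9% against 4.51%). The XBP1 element UPRE, searched as TGACGTGG, was in 0 of the 28 windows and in 0.714% of the promoter table. No site in these genes overlapped another. A match is a description of the letters and not evidence of binding. ERSE and CARE are known from genes of the kind that the set was chosen to hold. The higher shares beside the promoter table are therefore no independent result.

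The stretches below show the promoter matches of chaperone and isomerase genes and of ATF4 target genes, 5′ to 3′ on the strand of the gene, with the motif in capitals and "reversed" where it lies on the opposite strand. They are shown so that the matches, their orientation and the bases around them can be read. The fixed letters are alike because the search required them. Hspa5 is at chr2:34772005-34772063, plus strand. Hsp90b1 carries a pair of elements, the distal at chr10:86705618-86705676 and the proximal at chr10:86705513-86705571, minus strand. Canx is at chr11:50325780-50325838, minus strand, Creld2 at chr15:88819500-88819558, plus strand, and Pdia6 at chr12:17266471-17266529, plus strand. Herpud1 (ERSE-II) is at chr8:94386357-94386407, plus strand. The CARE stretches are Chac1 at chr2:119351029-119351076, plus strand, Atf3 at chr1:191183416-191183463, minus strand, and Asns at chr6:7693210-7693252, minus strand.
Hspa5 ERSE: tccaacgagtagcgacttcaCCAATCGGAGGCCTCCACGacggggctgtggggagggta
Hsp90b1 distal ERSE: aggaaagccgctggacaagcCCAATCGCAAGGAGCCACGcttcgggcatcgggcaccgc
Hsp90b1 proximal ERSE, reversed: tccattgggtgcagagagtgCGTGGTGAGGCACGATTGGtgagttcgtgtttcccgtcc
Canx ERSE: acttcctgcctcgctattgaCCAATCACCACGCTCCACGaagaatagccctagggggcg
Creld2 ERSE, reversed: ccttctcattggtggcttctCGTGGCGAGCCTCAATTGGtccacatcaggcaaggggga
Pdia6 ERSE: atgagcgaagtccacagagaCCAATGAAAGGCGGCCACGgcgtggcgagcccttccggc
Herpud1 ERSE-II: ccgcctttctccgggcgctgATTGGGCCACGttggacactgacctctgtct
Chac1 CARE, reversed: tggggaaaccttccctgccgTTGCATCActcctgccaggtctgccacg
Atf3 CARE, reversed: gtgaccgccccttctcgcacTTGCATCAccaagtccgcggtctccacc
Asns CARE: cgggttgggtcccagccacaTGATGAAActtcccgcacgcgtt
The Hspa5 element begins 65 bases before the start and that of Syvn1 44 bases before it. The Hsp90b1 elements begin 212 and 107 bases before the start.

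Of the 11 chaperones and co-chaperones, log2 fold changes were above 0 in 9 and below 0 in 2, the median was 0.13 and 0 passed the test. The median was 0.02 without 826, 0.28 without 139 and 0.23 without 850, with 7 to 10 positive. Hspa5 (BiP), the main ER chaperone of the HSP70 family and the usual reporter of ER stress, stood at 422 and 343 against 444 and 376 FPKM. Its genotypes overlapped, with 139 above 850. The log2 fold change was 0.10 (SE 0.35; limma adjusted p = 0.979), and -0.05 without animal 140. On mm9, Hspa5 lies on chromosome 2 from 34627490 to 34632051, plus strand. Hsp90b1 (GRP94), the HSP90 of the ER, stood at 210 and 182 against 280 and 245 FPKM. Both Usp25-/- libraries were above both Usp25+/+ libraries, and the log2 fold change was 0.42 (SE 0.33; limma adjusted p = 0.96), between 0.32 and 0.53 with any library left out.

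The same separation was seen for 3 other chaperone genes. Manf, a secreted factor that is induced by ER stress and binds BiP, stood at 33.9 and 26.7 against 53.0 and 38.3 FPKM (log2 fold change 0.57, SE 0.33). Creld2, an ER stress-inducible protein with isomerase activity, stood at 21.8 and 25.6 against 39.4 and 29.5 FPKM (0.51, SE 0.31). In both, 826 was well above 850, and without 826 the log2 fold changes were 0.34 and 0.31. Canx, the membrane-bound lectin chaperone of glycoproteins, stood at 81.1 and 62.5 against 83.9 and 91.5 FPKM, so that 139 was nearly level with 826. Its soluble relative Calr stood at 341 and 368 against 403 and 355 FPKM, with overlapping genotypes.

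The J-domain co-chaperones of BiP were nearly level. Dnajb9 stood at 102 and 65.9 against 89.3 and 74.7 FPKM (log2 fold change -0.0036, SE 0.36), with the Usp25-/- libraries between those of Usp25+/+. Dnajb11 was the least variable of the 11 chaperone genes, at 48.7 and 45.5 against 43.6 and 43.2 FPKM, which separates the genotypes by a small step (-0.11, SE 0.28). Dnajc3, which also inhibits PERK, ranged from 26.8 to 34.5 FPKM and overlapped (0.13, SE 0.29). Sdf2l1, a partner of Dnajb11, was low in 139 alone, at 23.6 FPKM against 44.8, 40.4 and 38.5 FPKM in 140, 826 and 850. Its log2 fold change of 0.27 became -0.18 without 139. Hyou1, an HSP110-type exchange factor for BiP, ranged from 17.9 to 23.4 FPKM (0.11, SE 0.29).

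The disulfide isomerases, which form and rearrange disulfide bonds, were all highest in animal 826 and had the largest median of the 6 roles, 0.63 (0.40 without 139), with 0 of 4 past the test. Pdia3 (ERp57), which works with Canx and Calr on glycoproteins, stood at 173 and 200 against 324 and 277 FPKM. The means were 187 ± 19.0 and 300 ± 33.3 FPKM (SD, n = 2 each), and the distance between the genotypes was larger than that between the libraries of either. The log2 fold change was 0.68 (SE 0.33; limma adjusted p = 0.96), between 0.57 and 0.79 with any library left out. The gene lies on chromosome 2 of mm9 from 121239511 to 121264423, plus strand.

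Pdia4 and Pdia6 showed the same order of libraries as Pdia3, with 826 first, then 850, 140 and 139. Pdia4 stood at 43.7 and 56.6 against 81.4 and 78.6 FPKM (log2 fold change 0.67, SE 0.31), and the Usp25-/- libraries were nearly equal. Pdia6, which also attenuates IRE1 and PERK signalling, stood at 89.3 and 130 against 174 and 149 FPKM (0.58, SE 0.35), and 0.31 without 139. P4hb (PDI), the most abundant isomerase, differed from the other 3 in that 139, 140 and 850 were level at 289, 280 and 288 FPKM and only 826 stood out at 346 FPKM. Its log2 fold change was 0.15 (SE 0.33), and 0.02 without 826. All 4 kept a positive log2 fold change whichever library was left out. Gastric surface markers were also highest in sum in 826 and next in 850 (2930 and 1160 FPKM). The largest values in 826 were those of Tff1 (1850 FPKM) and Gkn2 (645 FPKM). Tff2 was lowest in 826, at 17.0 FPKM, and the mucin gene Muc5ac did not exceed 0.504 FPKM in any library. The part of the gastric surface markers in the isomerase values was not tested.

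The ERAD genes, whose products pull misfolded proteins out of the ER for degradation, showed no common direction, with 2 positive and 3 negative of 5 tested and a median of -0.09 (-0.17 without 140 and -0.04 without 850). Derl1, a channel component, stood at 44.0 and 49.4 against 42.4 and 35.9 FPKM, the only tested ERAD gene here whose genotypes did not overlap (log2 fold change -0.25, SE 0.29). Herpud1, a ubiquitin-like scaffold of the complex, stood at 72.5 FPKM in 139 and between 59.5 and 61.9 FPKM in the other 3 libraries. Edem1, a lectin that selects glycoproteins, ranged from 23.4 to 34.7 FPKM and was high in 139 and 826. Syvn1 (HRD1), the ubiquitin ligase, and its partner Sel1l ranged from 9.82 to 14.8 and from 18.5 to 22.4 FPKM, both with overlapping genotypes. Derl3, a Derlin known from plasma cells, was listed at 0 in 139 and at 0.774, 1.59 and 0.813 FPKM in 140, 826 and 850, below the filter. The 9 plasma cell markers found summed to 109 and 136 FPKM in 139 and 140 and to 162 and 124 FPKM in 826 and 850. Much of this was Sdc1, at 82.3 and 55.4 against 131 and 72.2 FPKM. By contrast, Jchain and Mzb1 were highest in 140 (60.9 and 6.27 FPKM) and stood at 15.9 and 0 FPKM in 826. Of the 9, 2 were highest in 139, 2 in 140, 2 in 826 and 3 in 850. The part of the plasma cell markers in the Derl3 values was not tested.

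On log2(FPKM + 1), Ppp1r15a showed the widest gap between the genotypes among the 31 tested genes and went against most of them. It encodes GADD34, which brings a phosphatase to eIF2alpha and so restores translation after PERK has acted, and it is also induced early by other kinds of stress. Its level was 161 FPKM in 139 and 146 FPKM in 140, against 58.4 FPKM in 826 and 86.5 FPKM in 850. The means were 154 ± 10.4 and 72.5 ± 19.9 FPKM (SD, n = 2 each), a ratio of 0.471. Every Usp25+/+ library was far above every Usp25-/- library. The log2 fold change was -1.10 (SE 0.34; limma adjusted p = 0.96). With a pseudocount of 0.1 it was -1.11, and that of Chac1 was wider, at 1.24. Ppp1r15a was the 1 gene of the 31 below the unadjusted threshold of 0.05 with all libraries. In some fits with a library left out it was not below that threshold. Its log2 fold change lay between -1.38 and -0.82 with any library left out. On mm9 the gene is on chromosome 7 from 52778286 to 52781638, minus strand. Its constitutive relative Ppp1r15b stood at 49.2 FPKM in 139 and at 18.0, 25.6 and 25.0 FPKM in 140, 826 and 850.

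The other 3 genes downstream of PERK and ATF4 did not share the pattern of Ppp1r15a. Chac1, which degrades glutathione, stood at 0.649 and 0.874 against 2.89 and 1.25 FPKM (log2 fold change 0.75, SE 0.42), higher in both Usp25-/- libraries at levels near the filter. Without 826 its log2 fold change was 0.36. Trib3, a pseudokinase that binds ATF4, was level at 4.30, 4.45 and 4.36 FPKM in 139, 140 and 826 and at 5.81 FPKM in 850. Asns, asparagine synthetase, stood at 12.5 and 7.81 against 16.1 and 10.0 FPKM, with 139 above 850 (0.33, SE 0.38). Its log2 fold change was 0.01 without 826, 0.03 without 140, 0.64 without 139 and 0.65 without 850.

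**Figure D2:**
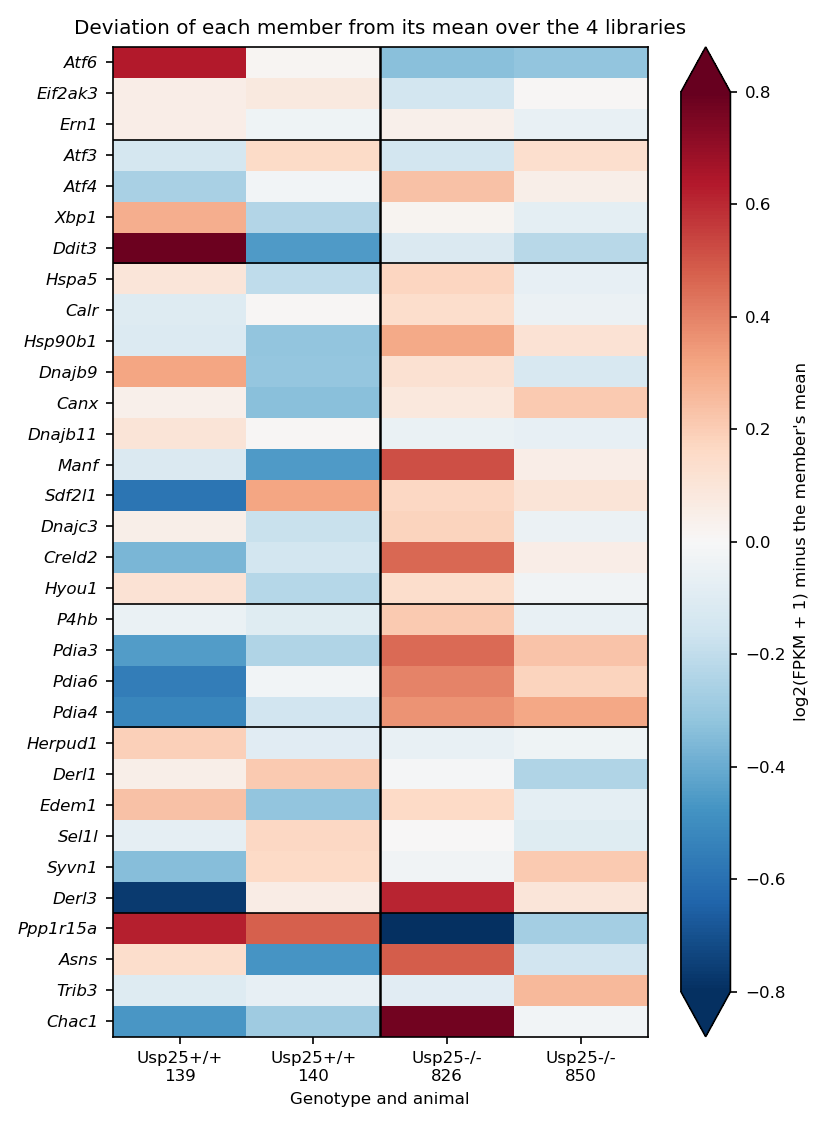
Deviation of each of the 32 genes in each library from its own mean over the 4 libraries, in log2(FPKM + 1), with red above and blue below the mean. The isomerases Pdia3, Pdia4 and Pdia6 are red in both Usp25-/- libraries and Ppp1r15a is blue in both, while Ddit3 and Atf6 stand out in animal 139.

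The library in which a gene was highest or lowest was then counted. Of the 31 tested genes, 14 were highest in animal 826 and 9 in 139, against 5 in 140 and 3 in 850. Over all tested genes 25.4% were highest in 826, 29.9% in 139, 27.2% in 140 and 17.5% in 850. The lowest library was 140 in 13, 139 in 10, 826 in 4 and 850 in 4 of the 31. Over all tested genes the shares were 23.5%, 39.4%, 24.3% and 12.8%. Under quantile normalization the count highest in 826 was 10. The order 826, 850, 140, 139 was shared by Atf4, Creld2, Pdia3, Pdia4, Pdia6 and Chac1, against 8.22% of all tested genes. The order 826, 139, 850, 140 was shared by Hspa5, Hyou1, Dnajc3, P4hb and Asns, against 3.75% of all tested genes. Xbp1, Ddit3, Dnajb9 and Edem1 were highest in 139 and next in 826, and 7.07% of all tested genes had their order. Animal 826 also had the highest sum of gastric surface markers and 139 that of neutrophil markers, as given above, and their part in these orders was not tested. The orders were tabulated after the values had been seen.

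After the values had been seen, the genes with an ERSE were compared with the rest of the 28 that had a promoter window. All 8 tested genes with ERSE had a positive log2 fold change, from 0.10 to 0.58 with a median of 0.23, beside 53.5% positive over all tested genes. Most of the 8 are chaperone or co-chaperone genes, a role in which 81.8% were positive, a share that includes these genes themselves. Of the chaperone genes in which no ERSE was found, Hyou1 (0.11), Sdf2l1 (0.27) and Manf (0.57) were positive. Dnajb9 (-0.0036) and Dnajb11 (-0.11) were negative, and Hyou1 and Manf had no window. Of the other ER and ATF4 genes described below, 71.4% were positive. In 4 of the 8 the Usp25-/- libraries lay above Usp25+/+ without overlap, beside 19.0% of all tested genes, and in 0 below. Of the 19 tested genes with a window and no ERSE, 9 were positive and 10 negative, with a median of -0.0036. Without overlap, 4 of the 19 were higher and 3 lower. The 19 include Herpud1 (-0.09) and Dnajb11 (-0.11), which carry the related ERSE-II. Among the 19, Pdia3 (0.68), Pdia4 (0.67) and Chac1 (0.75) exceeded every gene with ERSE. When a library was left out, 7 or 8 of the 8 were positive. In the 19, the positive count was 9 to 13, with 13 and a median of 0.16 when 139 was left out. Outside these genes, 7 other tested genes held an ERSE, among them Ero1lb, and 3 of these were positive and 4 negative. No gene of either set passed the test, and the difference between the sets was not tested. The 5 genes with CARE had a median of 0.17, with 3 positive, and the 22 without it a median of 0.11, with 14 positive. Without 850 the median of the 5 was -0.0023, with 2 positive, and without 826 that of the 22 was 0.01.

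**Figure D3:**
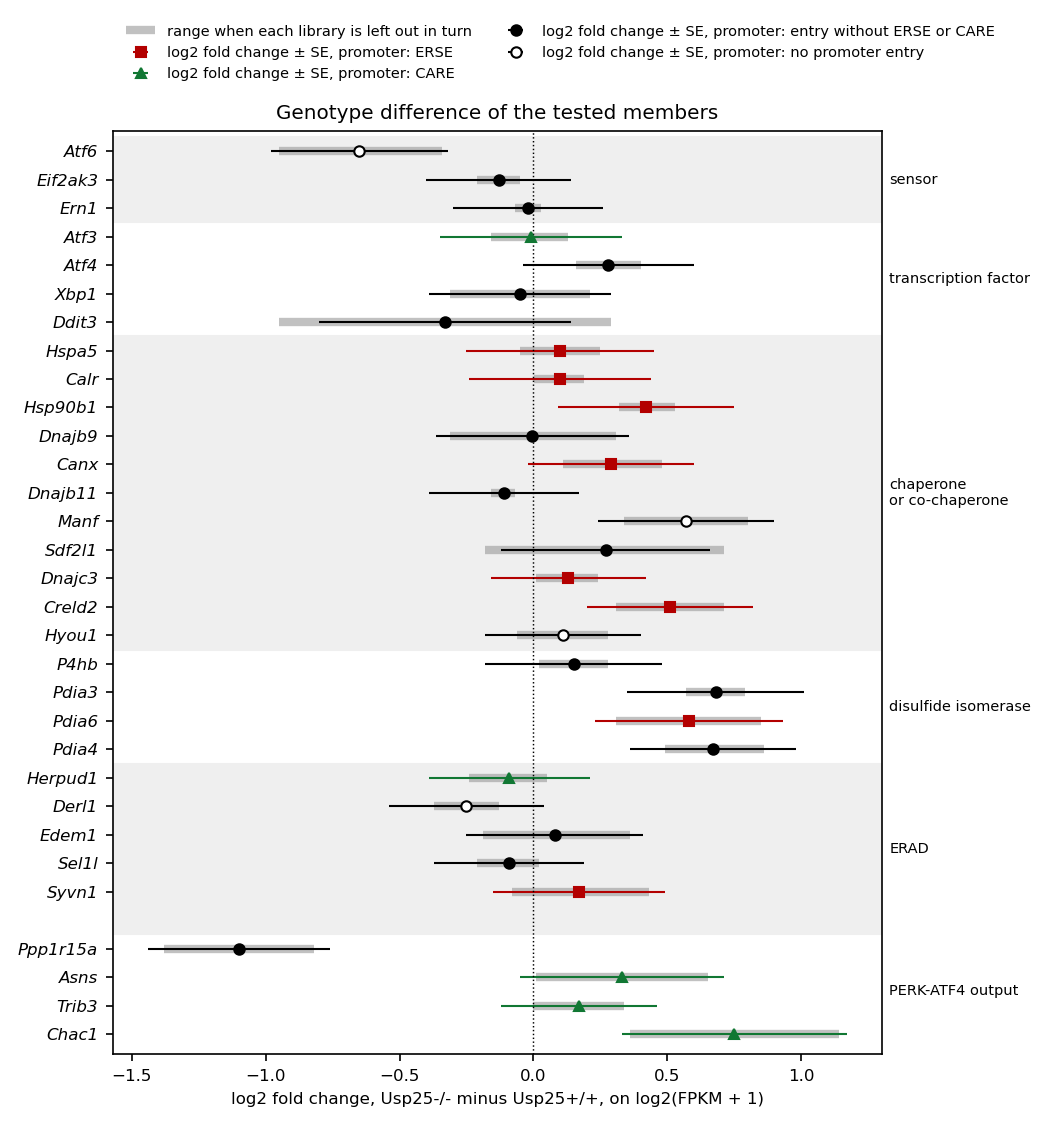
Log2 fold change of the 31 tested genes with its limma standard error (thin lines) and the range when each library is left out in turn (grey bars), marked by promoter motif. The 8 genes with ERSE lie to the right of 0, and Ppp1r15a (-1.10) lies farthest to the left. ERSE-II is not marked separately.

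Other genes of the same machinery, listed separately, were compared with the same fit, and limma called 0 of 140 tested. At an unadjusted p of 0.05 there was 1. Of the 140, 100 were positive, with a median log2 fold change of 0.17, and the genotypes did not overlap in 43 (30.7%, against 33.8% of all tested genes). The directions were uneven, with 36 higher (25.7%, against 19.0%) and 7 lower (5.0%, against 14.7%). The median of the 140 was 0.10 without 139 and 0.08 without 826. The ER import and glycosylation list, which holds the translocon and the oligosaccharyltransferase, had 27 positive of 31 and a median of 0.22 (0.34 without 140). In it 11 genes were higher without overlap and 0 lower. Sec61b, a translocon subunit, stood at 107 and 131 against 196 and 127 FPKM, so that only 826 stood out.

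Other folding and oxidation genes had a median of 0.26 with 22 positive of 31, and 18 of the 31 were lowest in 139, so that the median was 0.08 without it and 0.43 without 140. The oxidase gene Ero1l, which recharges the isomerases, was high in 139 and 826 (26.0 and 23.0 FPKM) and low in 140 and 850 (13.9 and 12.9 FPKM), unlike Pdia3 and Pdia4. Its relative Ero1lb ranged from 4.34 to 6.22 FPKM. Txndc5 stood at 25.1 and 34.4 against 40.2 and 34.3 FPKM, and Pdia5 did not exceed 4.42 FPKM. Agr2, an isomerase of mucous cells, stood at 20.9 and 18.6 against 24.4 and 21.6 FPKM, a small step without overlap. Uggt1, the folding sensor of glycoproteins, ranged from 7.58 to 9.27 FPKM.

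The remaining lists gave medians of 0.05 for other ERAD genes (15 positive of 25), 0.12 for other ER stress regulators (13 of 21) and 0.27 for other ATF4 targets and amino acid supply (23 of 32). Without 139, 140 and 826 in turn the regulators had medians of -0.02, -0.01 and 0.05. The ATF4 targets had medians of 0.17, 0.18 and 0.04, and the ERAD genes one of -0.04 without 826 and 0.15 without 850. Slc7a11, the cystine carrier, stood at 100.2 FPKM in 139 and at 5.72, 17.3 and 8.36 FPKM in 140, 826 and 850. Gdf15, a stress-induced cytokine, was by contrast lowest in 139, at 85.0 FPKM against 391, 300 and 201 FPKM. The serine synthesis genes Phgdh and Psat1 were higher in both Usp25-/- libraries, at 14.8 and 33.4 against 36.8 and 39.7 FPKM and at 10.5 and 9.37 against 12.2 and 14.2 FPKM. Sesn2, an ATF4 target that restrains mTORC1, was lower, at 10.2 and 10.5 against 6.55 and 7.96 FPKM. Nupr1 overlapped (110 to 235 FPKM), and Atf6b, a relative of Atf6, ranged from 13.4 to 20.6 FPKM. Cebpb, which pairs with CHOP and also takes part in inflammation, stood at 127 and 200 against 246 and 208 FPKM.

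A list of heat shock genes, most of them for cytosolic chaperones, was set beside the ER genes. Of its 23 genes, 22 had a positive log2 fold change, with a median of 0.38. In Usp25-/-, 14 (60.9%) were higher without overlap and 0 lower. The 14 include Hspd1 (0.30) and Hspe1 (0.49), which encode mitochondrial chaperonins. Hsf1 (0.31), a transcription factor gene, is also on the list. For the 31 ER stress genes 29.0% were higher without overlap, and over all tested genes 19.0% were higher and 53.5% positive. With a library left out the heat shock median lay between 0.30 and 0.52, with 19 to 21 positive. Limma called 0 of them, and 0 had an unadjusted p under 0.05. The inducible Hspa1a stood at 13.6 and 25.4 against 27.6 and 37.2 FPKM and its near-identical copy Hspa1b at 11.7 and 20.1 against 26.0 and 30.1 FPKM, values that shared reads make uncertain. Hsp90aa1 was low in 140 alone, at 59.7 FPKM against 93.4 to 97.9 FPKM in the others. The difference between the heat shock list and the ER genes was not tested.

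**Figure D4:**
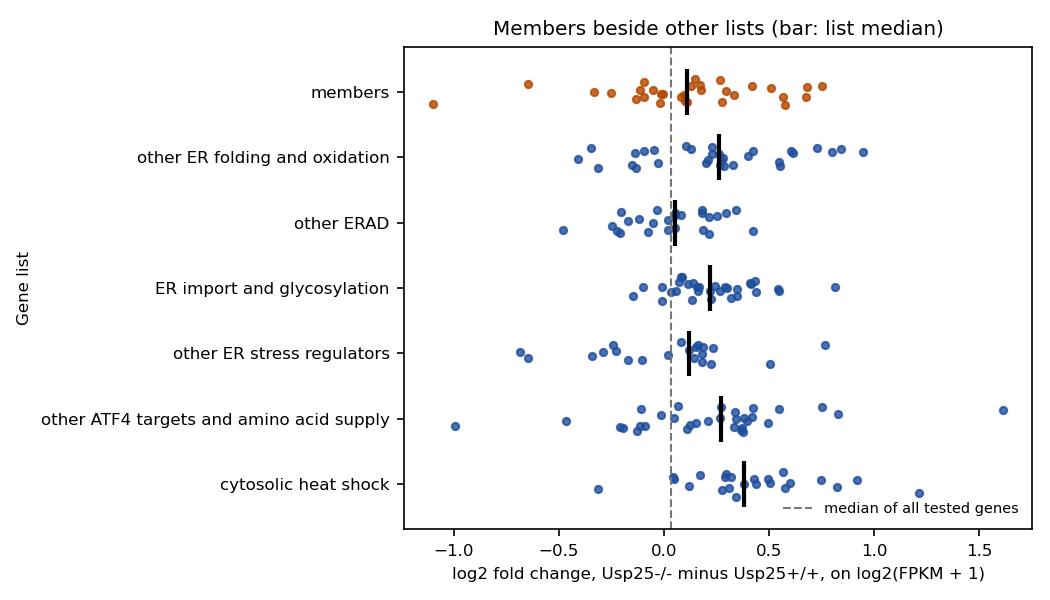
Log2 fold change between the genotypes (horizontal axis) for the tested genes of the ER stress set and of 6 other lists, with 1 point for each gene, a black bar at each list's median and a dashed line at the median of all tested genes (0.03). The median is 0.11 for the ER stress genes and 0.38 for the list labelled cytosolic heat shock, which also holds mitochondrial chaperonins. Each list has points on both sides of 0. Of the heat shock genes 22 of 23 lie above 0, and of the ER import and glycosylation genes 27 of 31.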

How the data were processed

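Poly(A) RNA of 4 mouse libraries was sequenced as paired reads without strand information, per the labels' protocols, so a read in an overlapping or antisense gene has no known strand. Tools named, per the submitters' processing notes, are TopHat2 2.1.1, cutadapt and Cufflinks, with build mm9. The deposited values are taken as FPKM because Cufflinks is named and library totals differ (526652 to 565645). No file header states the unit, and its annotation and scaling options are unknown here. Because the scaling is to the library total, very abundant transcripts reduce the values of the rest.

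Genotypes came from the titles, and no animal number was shared between them. Limma 3.58.1 (R 4.3.3, eBayes with trend, two-sided) was fitted to log2(FPKM + 1), a scale that shrinks differences at low levels. Genes averaging 1 FPKM or more (12011) were tested, with Benjamini-Hochberg adjustment over them and a threshold of 0.05. P-values measure only the spread between these animals. The fit was also run on simulated data with independent normal noise, which does not model differences in cell composition between libraries. Genotypes were said not to overlap when both libraries of a genotype lay above both of the other. The genes and lists were chosen with earlier results of these data known. All 32 were named, and of other lists a fixed set of symbols. The planned likeness of patterns to Hspa5 was replaced by the order of libraries, since 4 libraries are too few for a correlation. Ppp1r15b was named, and the split by motif was made, after values were seen. Gene coordinates are from GENCODE vM1 (mm9). Promoter sequences are from RefSeq (GRCm38.p6), and 18181 of the 24421 symbols matched them, 28 of the 32 among them. Alternatives were other pseudocounts (0.1 and 5), filters (none and 5 FPKM), scalings (equal medians and quantiles) and eBayes without trend, and each library was left out in turn.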

Additional observations from a re-analysis of the deposited data

How the results depend on the processing

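Limma called 0 of the ER stress genes under the 7 alternatives and with each library left out. Their median log2 fold change lay between 0.09 and 0.13 under the alternatives and between 0.02 and 0.21 with a library left out. The count without overlap was 13 to 15 of 28 to 32 tested under the alternatives, beside 22.8% to 34.9% of all tested genes. With a library left out it was 18 to 27, when 53.0% to 80.8% of all tested genes did not overlap, since a single library overlaps less by construction. It was 27 of 31 without animal 139, beside 72.5% of all tested genes, and 24 of 31 without 140, beside 80.8%. The share was thus larger than over all tested genes without 139 and smaller without 140. The count at an unadjusted p of 0.05 was 1 in the main fit, beside 3.12% of all tested genes. With no filter on low values it was 3, and the share over all genes under that setting was not counted. That count also moved in both directions with a library left out. No paired analysis was possible because the genotypes share no animal number.

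With a library left out, the spread of the lone library is taken from the intact pair. Of the 31 tested genes, 18 kept their sign whichever library was left out. The other 13 changed sign and ranged as follows: Ern1 -0.07 to 0.03, Xbp1 -0.31 to 0.21, Ddit3 -0.95 to 0.29, Dnajb9 -0.31 to 0.31, Sdf2l1 -0.18 to 0.71, Herpud1 -0.24 to 0.05, Syvn1 -0.08 to 0.43, Atf3 -0.16 to 0.13, Hspa5 -0.05 to 0.25, Hyou1 -0.06 to 0.28, Edem1 -0.19 to 0.36, Sel1l -0.21 to 0.02 and Trib3 -0.0023 to 0.34. Under quantile normalization Atf3 was 0.07, the only sign change among the 7 alternatives, and the cause was not tested. Depth is unknown, so no limit can be set for Derl3 or Chac1.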
